A study of Homo sapiens with 23 samples.

Results

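The genes described here are the cyclins and cyclin-dependent kinase (CDK) inhibitors that set the pace of the G1 phase of the cell cycle: the CIP/KIP inhibitors CDKN1A, CDKN1B and CDKN1C, the INK4 inhibitors CDKN2A, CDKN2B and CDKN2C, the D-type cyclins CCND1, CCND2 and CCND3, and CCNE1. They were chosen by name, with earlier results of these data known. They are 10 of 20007 protein-coding genes of GENCODE 44 on chromosomes 1 to 22, X and Y. Each locus was taken as the gene body with 5 kb on both sides. The data were chromatin immunoprecipitation followed by sequencing (ChIP-seq) from SW480, a cell line derived from a human colorectal adenocarcinoma. Cells received sodium propionate (NaPr, 10 mM) or sodium butyrate (NaBu, 1 mM) for 12 to 16 h, or neither. Antibodies against acetylated (ac), propionylated (pr) or butyrylated (bu) lysine at H3K18 and H4K12 gave 20 libraries in 10 groups of 2: H3K18ac and H4K12ac in untreated, NaPr and NaBu cells, H3K18pr and H4K12pr in NaPr cells, and H3K18bu and H4K12bu in NaBu cells. There were 3 input libraries of sheared chromatin, taken as 1 per condition. The title of the input used for untreated cells reads "acet" and names no treatment. Propionyl marks were not measured outside NaPr and butyryl marks not outside NaBu. All libraries came from the same cell line, and the labels do not say whether replicates were separate cultures, so p-values measure the spread between these libraries.

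D-type cyclins activate CDK4 and CDK6, and cyclin E activates CDK2. Both kinds of complex phosphorylate the retinoblastoma protein, which releases E2F factors and lets a cell enter S phase. INK4 proteins bind CDK4 and CDK6 and keep D-type cyclins off them, whereas CIP/KIP proteins bind assembled cyclin and CDK complexes. Butyrate inhibits histone deacetylases, and CDKN1A, which encodes p21, is a well-known gene induced by butyrate in colon cancer cells. Acylation of H3K18 and H4K12 is found at active promoters and enhancers.

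The measured unit was the called region (peak), so the values say where and how widely signal passed a threshold, not how much signal there was. Lists of immunoprecipitated libraries held 8158 to 208823 regions. Those of the butyryl marks were the shortest, at 8158 to 22497, and the inputs held 30386 to 93923. The 2 H4K12ac lists in NaBu held 88658 and 11680 regions, and the 2 H3K18ac lists in NaPr held 202787 and 95194. Of the 20 libraries, 11 shared more covered bases with their own replicate than with any other list (Jaccard index, shared over combined bases). Replicate 1 of H3K18ac in NaPr had an index of 0.202 with its replicate and 0.332 with replicate 1 of untreated H3K18ac, and replicate 2 of H4K12ac in NaBu had 0.125 with its replicate and 0.351 with replicate 1 of H4K12bu. Run tags in the names of the deposited lists, which are not sample labels, set apart the propionyl libraries with the NaPr input, the NaPr and untreated acetyl libraries with the untreated input, and all NaBu libraries. A run tag thus separates the propionyl from the acetyl libraries, and the NaBu from the untreated ones, and cannot be told apart from mark or treatment there. NaPr against untreated acetyl libraries, and butyryl against acetyl libraries, fall within 1 tag. The NaPr acetyl libraries carry another tag than the NaPr input. Of 7 markers of colorectal epithelium (EPCAM, KRT8, KRT18, KRT19, CDH1, CDX2 and VIL1), 2 to 7 had a region at the start site in each immunoprecipitated library. Of 8 markers of other cell types 0 to 4 did, and PTPRC, CD3E, CDH5 and ALB had none.

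The sequences just before 4 start sites are given because called regions touched some of these starts and not others. A link between sequence and region was not tested. They are RefSeq sequences (GRCh38.p14) that end at the base before the start, written 5′ to 3′ on the strand of the gene, with capitals marking GC boxes (GGGCGG on either strand).
CDKN1A, chr6:36678464-36678713, plus strand: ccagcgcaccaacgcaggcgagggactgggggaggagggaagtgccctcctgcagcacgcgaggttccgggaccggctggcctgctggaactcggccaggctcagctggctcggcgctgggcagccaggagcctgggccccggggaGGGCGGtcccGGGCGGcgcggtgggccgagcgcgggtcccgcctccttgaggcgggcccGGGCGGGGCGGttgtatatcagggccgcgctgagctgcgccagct
CDKN2A at its outer (p14ARF) start, chr9:21995325-21995574, minus strand: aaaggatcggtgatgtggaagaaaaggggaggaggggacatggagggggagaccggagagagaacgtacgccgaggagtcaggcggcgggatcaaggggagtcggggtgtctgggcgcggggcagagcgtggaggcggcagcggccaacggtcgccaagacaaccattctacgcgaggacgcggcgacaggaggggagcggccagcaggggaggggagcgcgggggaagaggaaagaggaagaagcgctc
CDKN2A at its inner (p16INK4a) start, chr9:21974858-21975107, minus strand: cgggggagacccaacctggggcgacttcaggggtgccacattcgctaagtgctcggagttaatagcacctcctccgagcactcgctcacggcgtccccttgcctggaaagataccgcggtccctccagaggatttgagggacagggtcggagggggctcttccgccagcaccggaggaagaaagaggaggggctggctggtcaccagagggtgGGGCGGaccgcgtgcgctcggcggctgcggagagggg
CCNE1, chr19:29811741-29811990, plus strand: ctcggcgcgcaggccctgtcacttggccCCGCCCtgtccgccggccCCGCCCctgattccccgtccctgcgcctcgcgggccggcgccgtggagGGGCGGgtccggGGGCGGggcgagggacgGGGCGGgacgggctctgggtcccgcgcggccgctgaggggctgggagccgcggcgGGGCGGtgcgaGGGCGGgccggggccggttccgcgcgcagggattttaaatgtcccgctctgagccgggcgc

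Start sites of 7 members were in the RefSeq table, 12 in all. In windows of 250 bases before to 50 after the start, GC boxes matched 4 times at CDKN1A, 7 times at CCNE1, 2 times at the inner CDKN2A start and not at the outer start, where 45.0% of 35116 promoters of the table held a match. Some of these matches overlap, as the GC boxes that begin 45 and 40 bases before the CDKN1A start do. CCAAT (both strands, 34.6% of promoters) matched at CDKN1B, CCND3 and CDKN2C, and CACGTG (7.26%) at CDKN2C. TATAAA (11.5%) and TGACTCA or TGAGTCA (4.95%) matched at none of the 12 starts. A called region touched the window in 10 of 20 immunoprecipitated libraries at CDKN1A, in 11 at the outer CDKN2A start, and in 0 at the inner CDKN2A start and at CCNE1, where GC boxes were present.

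CDKN1A (chr6:36676460-36687337, plus strand) encodes p21, which inhibits CDK2 complexes and halts the cycle downstream of p53. Its coverage, the percentage of the locus inside called regions, was 42.9% and 28.3% for H3K18ac in untreated cells and 33.5% and 29.3% for H4K12ac. In NaPr it was 47.1% and 15.5% for H3K18ac, 8.84% and 4.86% for H4K12ac, 26.5% and 14.3% for H3K18pr, and 33.7% and 29.5% for H4K12pr. In NaBu it was 16.4% and 3.49% for H3K18ac, 2.45% and 0% for H4K12ac, and 0% in all 4 butyryl libraries. Coverage was thus highest in untreated and NaPr cells, and the acetyl libraries of NaBu cells did not overlap those of untreated cells at either site. Inputs covered 0.996% (untreated), 1.04% (NaPr) and 0% (NaBu) of the locus. The butyryl lists had a region in 21.0% to 38.3% of all protein-coding loci, and CDKN1A was not among these in any of the 4.

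The strongest CDKN1A region lay just inside the gene. In 9 of the 15 libraries with a region its summit was within 500 bp downstream of the start, beginning at 177 bp. The segment covered in at least 10 libraries ran from 37 to 1627 bp after the start (chr6:36678751-36680341) and was centred in the first intron, and further segments lay in the same intron from 3775 to 4196 bp and from 4324 to 4807 bp. Ranked by p-value within its list, the strongest region was in the top 1.78% and 1.45% (H3K18ac) and 5.13% and 9.95% (H4K12ac) of untreated lists. In NaPr it was in the top 3.55% and 5.71% for H3K18ac, 9.98% and 9.89% for H4K12ac, 6.13% and 4.54% for H3K18pr, and 1.95% and 6.05% for H4K12pr. In NaBu it ranked at 10.1% and 44.5% for H3K18ac and at 75.8% in the single H4K12ac list that held one. These percentages are of lists of different lengths, and the first NaBu value (10.1%) was level with those of H4K12ac in NaPr and of replicate 2 of untreated H4K12ac. The fold enrichment of the strongest region over the local background was 3.12 to 31.1 across the 15 libraries, and the number of regions in the locus was 0 to 14 over all 20. Both H4K12ac lists of NaPr cells lacked a region within 500 bp of the start and had their strongest one 4595 and 4481 bp downstream. The body also holds the antisense noncoding gene DINOL and the 5′ flank holds PANDAR, so regions there cannot be assigned to CDKN1A alone.

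**Figure D1:**
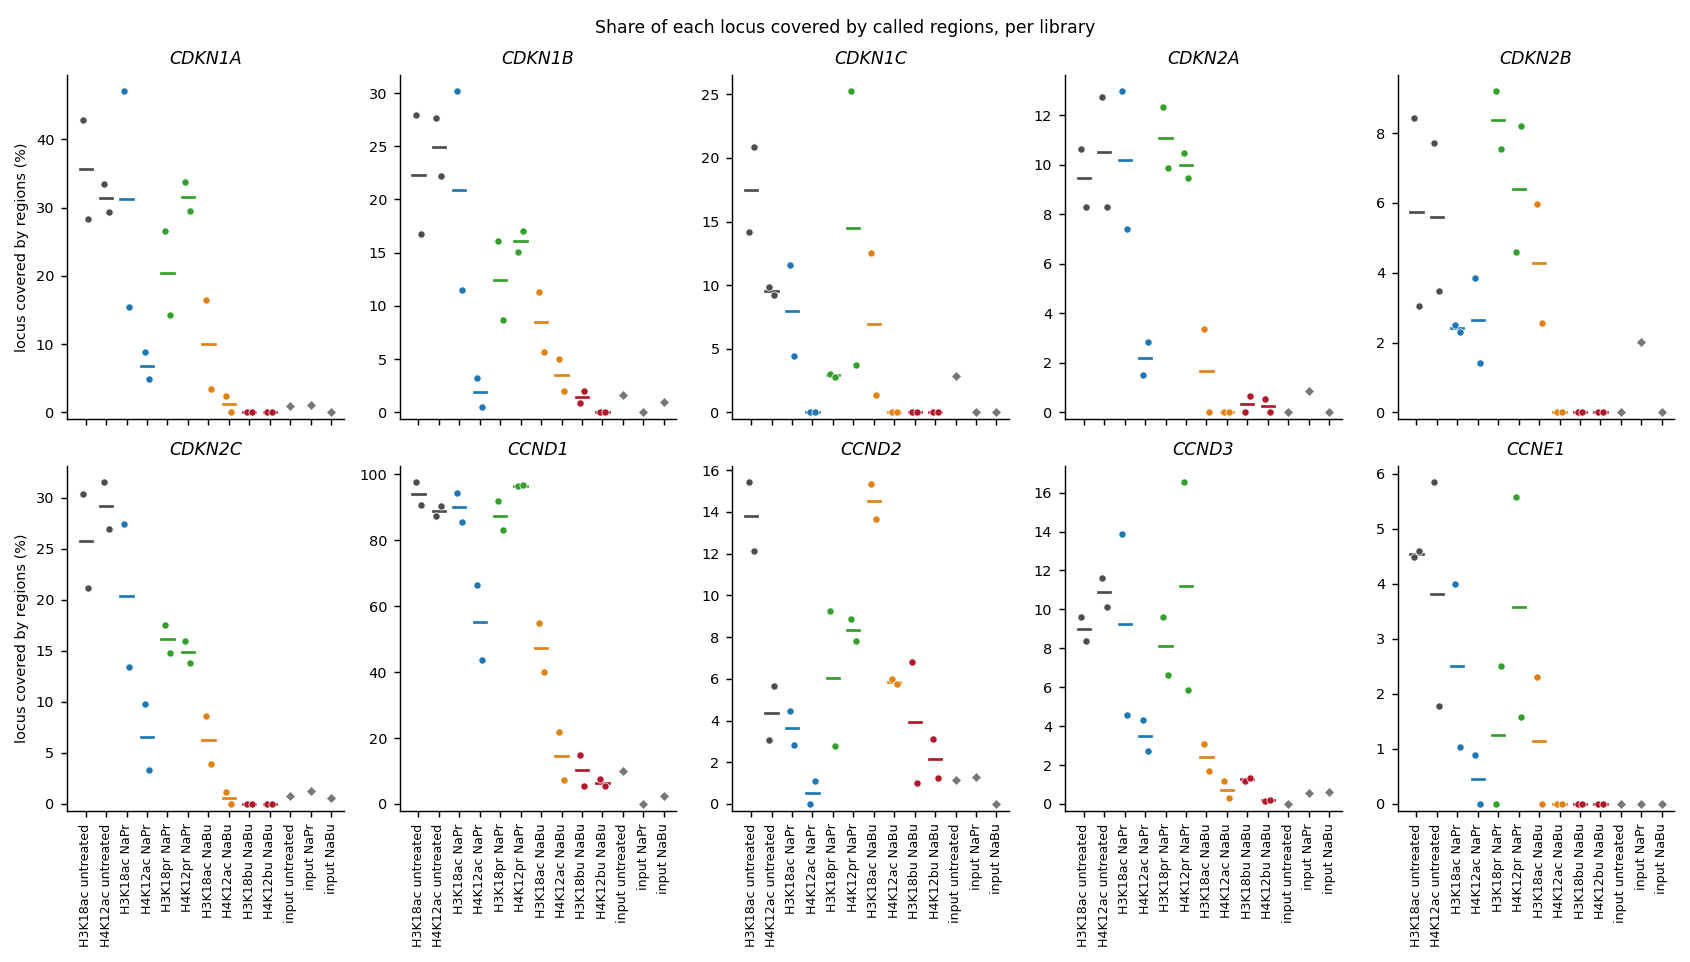
Percentage of each locus (gene body with 5 kb on both sides) covered by called regions, 1 panel per gene with its own vertical axis starting at 0. Circles are libraries, short lines the means of 2 libraries and diamonds the inputs. CDKN1A is at 0% in all 4 butyryl libraries, and CCND2 in NaBu H3K18ac (15.3% and 13.7%) lies beside its untreated values (15.4% and 12.1%).

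**Figure D2:**
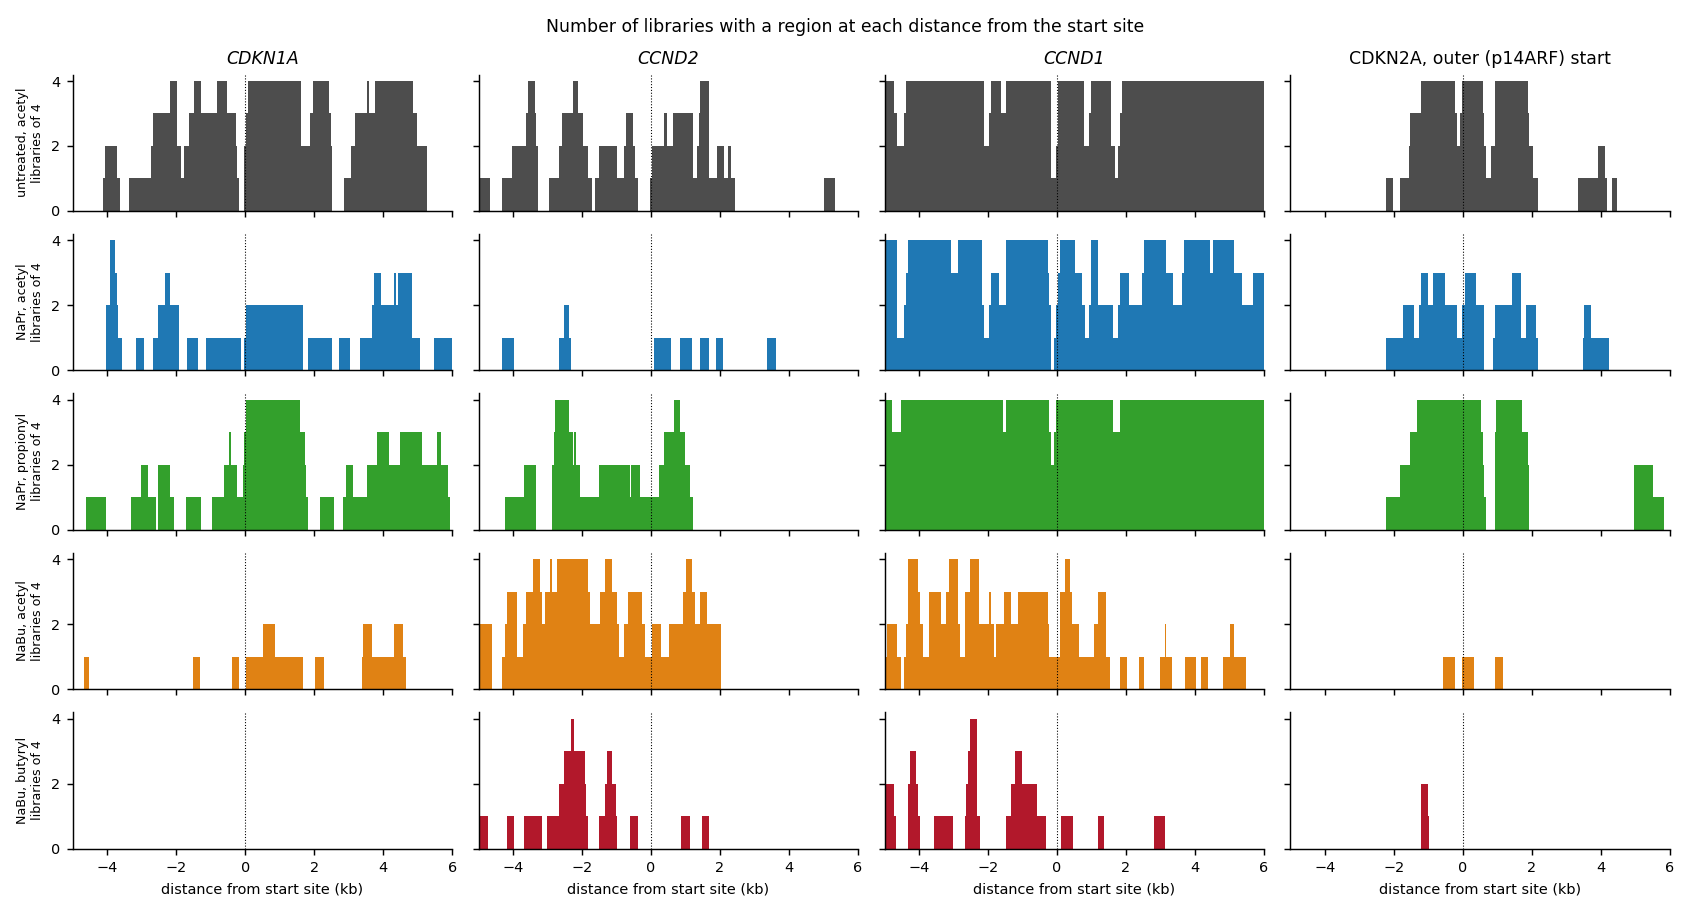
Number of the 4 libraries of each treatment and mark (both histone sites, 2 replicates each) with a called region at each distance from the start site, in kb, positive in the direction of transcription. At CDKN1A all 4 untreated and all 4 propionyl libraries are covered just downstream of the start, with further regions upstream, CCND2 regions shared by all NaBu acetyl libraries lie about 2 kb upstream, and CCND1 is covered almost throughout in untreated and propionyl libraries.

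The other CIP/KIP genes encode p27 (CDKN1B) and p57 (CDKN1C, an imprinted gene). CDKN1B (chr12:12685498-12722369, plus strand) was covered over 16.7% to 27.9% in the 4 untreated acetyl libraries. In NaPr coverage was 30.2% and 11.5% for H3K18ac but 0.501% and 3.25% for H4K12ac, and the propionyl libraries had 8.68% to 17.0%. NaBu acetyl libraries had 1.98% to 11.4%, H3K18bu 2.04% and 0.881%, and H4K12bu 0%. All 4 untreated CDKN1B values thus lay above those of NaBu, while in NaPr H3K18ac lay above H4K12ac. Its most widely shared segment (chr12:12696364-12696713, 14 libraries) lay at -21004 to -20655 bp from the canonical start, in the part of the gene body spanned only by longer transcripts and beside the 5′ end of the divergent gene GPR19. CDKN1C (chr11:2883213-2885775, minus strand) was covered over 14.2% to 20.8% by untreated H3K18ac and over 9.23% and 9.84% by untreated H4K12ac. It was at 0% in both H4K12ac libraries of NaPr cells, in both of NaBu cells and in all butyryl libraries. H4K12pr covered 25.3% and 3.69%, so the 2 replicates were far apart.

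CDKN2A (chr9:21967752-21995301, minus strand) encodes p16INK4a from its inner start and, from the outer start, p14ARF, which stabilises p53. In all 15 libraries with a region in its locus, the strongest summit lay at -1171 to 167 bp from the outer 5′ end. No immunoprecipitated library had a region within 500 bp of the inner start, 20444 bp further in, whereas 12 of 20 had one at the outer end. CDKN2A coverage was 8.31% to 12.7% in untreated acetyl libraries, and 9.49% to 12.3% in propionyl libraries, and in NaPr H3K18ac covered 13% and 7.43% while H4K12ac covered 1.5% and 2.86%. In NaBu it was 3.38% and 0% for H3K18ac, 0% in both H4K12ac libraries and at most 0.679% in butyryl libraries. The propionyl lists ranked the region highly, in the top 0.550% to 1.51%. In each propionyl library 1 CDKN2A region touched a region of the NaPr input. With such regions removed, propionyl minus acetyl at CDKN2A was 0.36 on the log2 scale, against 0.98 before, and neither was called. The noncoding gene CDKN2B-AS1 begins within this region on the opposite strand.

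CDKN2B (p15INK4b, chr9:22002903-22009305, minus strand), a gene induced by TGF-β, was covered over 3.04% to 8.43% in untreated acetyl libraries. Coverage was 1.42% to 3.85% in NaPr acetyl libraries and 4.60% to 9.22% in propionyl libraries. All 4 propionyl values thus lay above all 4 acetyl values of the same cells. The NaPr input covered 2.01% of the locus, within the range of those acetyl values. In NaBu CDKN2B coverage was 5.98% and 2.57% for H3K18ac and 0% for H4K12ac, H3K18bu and H4K12bu. In 11 of 14 libraries the strongest summit lay within 500 bp downstream of the start. The flanks of CDKN2A and CDKN2B share chr9:21997903-22000301, so these loci are not fully independent. CDKN2C (p18INK4c, chr1:50960745-50974634, plus strand) was covered over 21.2% to 31.5% in untreated acetyl libraries, 3.31% to 27.4% in NaPr acetyl libraries and 13.8% to 17.5% in propionyl libraries. It was 8.63% and 3.91% (H3K18ac) and 1.21% and 0% (H4K12ac) in NaBu, and 0% in all butyryl libraries.

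CCND1 (cyclin D1, chr11:69641156-69654474, plus strand), a target of Wnt signalling, was the most widely covered member in every immunoprecipitated library. In untreated cells H3K18ac covered 97.6% and 90.7% of it, and H4K12ac 87.5% and 90.3%. NaPr cells had 94.5% and 85.7% for H3K18ac, 66.5% and 43.7% for H4K12ac, 91.9% and 83.1% for H3K18pr, and 96.4% and 96.8% for H4K12pr. NaBu cells had 54.9% and 39.9% for H3K18ac, 21.7% and 7.37% for H4K12ac, 14.97% and 5.50% for H3K18bu, and 7.51% and 5.33% for H4K12bu. Coverage was near complete without NaBu, with H4K12ac in NaPr the exception, and narrower in every NaBu library. The strongest summit lay within 150 bp of -2434 bp from the start in 14 of 20 libraries, and the stretch chr11:69636749-69639051, upstream of the gene, held bases covered in all 20. The 3′ end of CCND1 overlaps LTO1 on the opposite strand. Strongest regions ranked in the top 0.165% to 4.05% of acetyl and propionyl lists and in the top 2.75% to 19.9% of butyryl lists. The untreated input covered 10.1% of this locus and the NaBu input 2.55%, with a region in the top 0.242% of that list 11623 bp downstream of the start, while the NaPr input had none.

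CCND2 (cyclin D2, chr12:4269771-4305353, plus strand) differed from the other members in NaBu. In untreated cells H3K18ac covered 15.4% and 12.1% of it, and H4K12ac 3.08% and 5.67%. NaPr cells had 4.44% and 2.85% for H3K18ac, 0% and 1.10% for H4K12ac, 9.26% and 2.79% for H3K18pr, and 8.85% and 7.81% for H4K12pr. NaBu cells had 15.3% and 13.7% for H3K18ac, 5.98% and 5.75% for H4K12ac, 6.82% and 0.996% for H3K18bu, and 3.10% and 1.23% for H4K12bu. Coverage in NaBu thus overlapped that of untreated cells for H3K18ac and lay just above it for H4K12ac, while NaPr acetyl libraries lay below at both sites. The position of the strongest region differed too. In the 4 untreated libraries its summit lay 1465 to 1555 bp downstream of the start, at the top 6.07% to 19.9% of the list, and in replicate 1 of H3K18ac that region touched an input region. In the NaBu acetyl libraries it lay upstream, at -2514 and -1973 bp for H3K18ac and -1879 and -2158 bp for H4K12ac, at the top 0.865%, 2.87%, 2.83% and 19.5%. The stretch chr12:4271020-4271957, at -2742 to -1805 bp and inside the gene body, was covered throughout in all 4 NaBu acetyl libraries, and 144 bp of it in all 4 butyryl libraries. It was not bare in untreated cells: each untreated library had a CCND2 region over part or all of it, at the top 16.9% to 29.4% of its list. These percentages, from lists of different lengths, include the 19.5% of replicate 2 of H4K12ac in NaBu. No stretch of the locus was covered in all 4 NaPr acetyl libraries. The antisense noncoding gene CCND2-AS1 spans both places, so these regions cannot be assigned to CCND2 alone.

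CCND3 (cyclin D3, chr6:41934934-42050357, minus strand) has the longest body of the members, and all 20 immunoprecipitated libraries had a region in its locus, as did the NaPr and NaBu inputs but not the untreated input. Coverage was 8.38% to 11.6% in untreated acetyl libraries, 2.75% to 13.9% in NaPr acetyl libraries, 5.87% to 16.5% in propionyl libraries, 0.314% to 3.10% in NaBu acetyl libraries and 0.159% to 1.32% in butyryl libraries. The most widely shared segment, chr6:41966221-41967005, was covered in up to 18 of 20 libraries and lay at -25197 to -24413 bp from the canonical start, inside the body spanned by longer transcripts. In the untreated acetyl libraries the strongest summit lay at -108866 to -108853 bp, beyond the 5′ end of CCND3 and inside the divergent gene TAF8. The other flank holds part of BYSL, so regions in the flanks cannot be assigned to CCND3 alone. CCNE1 (cyclin E1, chr19:29811991-29824312, plus strand) had the lowest median coverage of the members, 1.77% to 5.84% in untreated acetyl libraries, and no base of its locus was covered in more than 6 of 20 libraries. It had no region in any butyryl library, in either H4K12ac library of NaBu cells or in any input.

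Start sites of the members are given beside the percentage of all 20007 genes occupied in the same library. In untreated cells 9 and 9 of 10 members had a region within 500 bp of the canonical start for H3K18ac, where 64.8% and 67.2% of all genes did, and 8 and 8 for H4K12ac, where 61.7% and 61.9% did. In NaPr the counts were 9 and 7 for H3K18ac (64.9% and 52.2% of all genes), 2 and 2 for H4K12ac (25.5% and 19.4%), 8 and 7 for H3K18pr (52.3% and 44.4%), and 6 and 6 for H4K12pr (56.8% and 49.6%). In NaBu, H3K18ac gave 9 and 4 (56.5% and 39.8%), H4K12ac gave 3 and 2 (26.8% and 12.5%), and the butyryl marks gave 2 and 0 for H3K18bu (15.6% and 9.06%), and 0 and 0 for H4K12bu (8.71% and 5.82%). The inputs had 1 (untreated, 14.6% of all genes, at CCND2), 0 (NaPr, 4.32%) and 0 (NaBu, 1.28%). CCND1 was occupied in 17 of 20 immunoprecipitated libraries, CDKN2A in 0, CCNE1 in 5 and each other member in 10 to 12.

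Over the 20 libraries a mean of 5.05 members had a region within 500 bp and 2.00 had one over the start base, against 39.8% and 14.7% of all genes. Coverage of the RefSeq promoter windows and of the 300 bases on either side varied between starts. At CDKN1A a mean of 18.4% of the 300-base window was covered, against 33.6% upstream and 54.7% downstream. At the outer CDKN2A start 43.9% was covered, against 55.5% upstream and 58.8% downstream, and at CDKN2B 10.6%, against 17.1% and 53.5%. At CDKN2C the order was the other way at the start at 50960745 (30.9%, against 13.8% and 7.87%). There 2 of the 3 inputs also had a region in the window and upstream of it. At the CDKN2C start at 50968706 the window (28.5%) was below upstream (51.8%) and downstream (50.3%). At its canonical start the window (35.6%) was level with downstream (35.3%) and below upstream (43.4%). The windows at the inner CDKN2A start and at CCNE1 were at 0%.

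**Figure D3:**
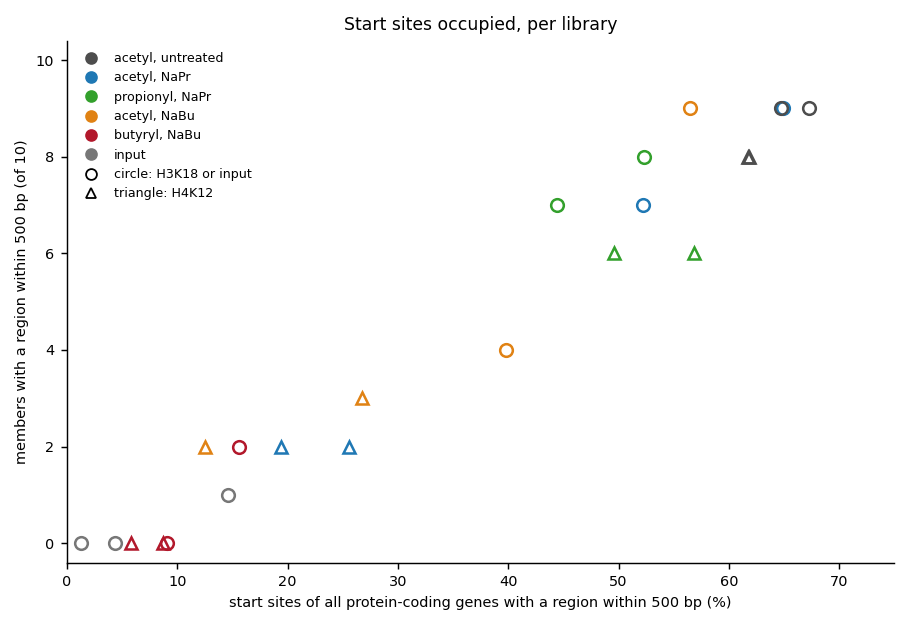
Members with a called region within 500 bp of the start site (vertical, of 10) against the percentage of all protein-coding start sites with one (horizontal), 1 symbol per library. Circles are H3K18 or input and triangles H4K12, coloured by mark and treatment. Members rise with all genes, from 0 in 5 of the 23 libraries to 9 in 4.

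Coverage differences were tested with limma on log2(percent covered + 1) over 18842 genes with coverage in at least 2 of 20 libraries, which all 10 members passed, with H3K18 and H4K12 averaged and calls at a Benjamini-Hochberg adjusted p under 0.05. The median of all genes was not 0 in any of the 4 comparisons, so each is given with its median. Between NaBu and untreated acetyl libraries 9 of 10 members were lower and 0 higher, where 68.6% of all genes were lower and 0.504% higher and the median difference of all genes was -1.36 on the log2 scale. A share of 9 in 10 is thus near a background in which most genes fell, and the median over the members was -2.08. The differences were -3.14 ± 0.39 (SE) at CDKN2C (adjusted p = 6.02e-05), -3.07 ± 0.49 at CDKN1A (adjusted p = 0.000227) and -2.91 ± 0.42 at CDKN2A (adjusted p = 0.000119), which placed CDKN1A at the 2.56th percentile of all genes. On this scale a locus can fall only as far as its starting coverage allows. Untreated coverage averaged 33.5% at CDKN1A, where the median of all genes was 4.08% to 5.74%. The part of starting coverage in the percentile and in the median over the members was not tested. The smallest of the called declines was that of CDKN2B, -1.47 ± 0.37 (adjusted p = 0.00317), close to the median of all genes. CCND2 was the exception, at 0.24 ± 0.46 (adjusted p = 0.656) and the 97.0th percentile.

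The number of these declines that were called depended on the scaling. With coverage quantile-normalized between libraries, which moved the median of all genes to 0.088 and the calls over all genes to 10.8% higher and 8.52% lower, CDKN1A (-1.63, adjusted p = 0.00391), CDKN2A, CDKN2C and CCND1 remained lower and CCND2 was higher by 1.74 (adjusted p = 0.00707). With each list cut to its 8158 strongest regions, 10894 genes and 7 members could be tested, without CDKN1C, CDKN2C and CCNE1, and 5.27% of all genes were higher and 32.7% lower. Among these CDKN1A (-1.86), CDKN2A, CCND1 and CCND3 were lower and CCND2 was higher by 3.03 (adjusted p = 1.14e-05). CDKN1A stayed called as lower in all 8 alternative settings and without each library in turn, with adjusted p between 1.03e-05 and 0.00391. When regions that touched an input region were removed, CCND1 turned to 1.05 (adjusted p = 0.102), a setting in which untreated regions that touch the untreated input drop out whole.

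Between NaPr and untreated acetyl libraries 4 of 10 members were lower (15.4% of all genes) and 0 higher (0.425%), with a median of -1.23 over the members and -0.56 over all genes. These were CDKN1C (-2.27 ± 0.54, adjusted p = 0.0172), CDKN1B (-1.78 ± 0.43, adjusted p = 0.0183), CCND2 (-1.77 ± 0.46, adjusted p = 0.0222) and CDKN2C (-1.26 ± 0.39, adjusted p = 0.0406). CDKN1A differed by -1.22 ± 0.49 (adjusted p = 0.0976) and CCND1 by -0.39 ± 0.32 (adjusted p = 0.408). With 1 library left out the 4 differences kept their sign, but each call was lost without some of the libraries. The differences then ranged from -2.57 to -1.97 at CDKN1C and from -2.15 to -1.4 at CDKN1B. At CCND2 they ranged from -2.03 to -1.5, and at CDKN2C from -1.59 to -0.931. CDKN1A, which was not called, ranged from -1.61 to -0.833. Quantile normalization (1.19% of all genes higher, 2.68% lower) called only CDKN1C (-1.49), and of the 7 members tested with the 8158 strongest regions (1.0% of all genes higher, 21.9% lower) only CDKN2A (-1.85) was called. CDKN1B there was -2.41 (adjusted p = 0.0521), a larger difference than without the cut.

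Propionyl libraries exceeded acetyl libraries of the same NaPr cells at 2 of 10 members (14.6% of all genes higher, 0.823% lower), with a median of 0.90 over the members and 0.45 over all genes. CCND2 was higher by 1.57 ± 0.46 (adjusted p = 0.0320) and CDKN2B by 1.26 ± 0.37 (adjusted p = 0.0329), while CDKN1A differed by 0.82 ± 0.49 (adjusted p = 0.268). Both calls were lost under quantile normalization (3.86% of all genes higher, 3.23% lower). With the 8158 strongest regions (7 members tested, 15.6% of all genes higher and 3.33% lower) CDKN1A (1.70, adjusted p = 5.72e-05), CDKN2A (1.82) and CDKN2B (1.93) were called. With 1 library left out the difference ranged from 1.21 to 1.93 at CCND2 and from 1.01 to 1.51 at CDKN2B. Each of these calls was lost without some of the libraries.

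Butyryl libraries lay below acetyl libraries of the same NaBu cells at 6 of 10 members (29.0% of all genes lower) and above at 0 (0.0%), with a median of -1.41 over the members and -0.77 over all genes. The 6 were CDKN1A (-2.02 ± 0.49, adjusted p = 0.0119), CDKN1B (-2.002 ± 0.432, adjusted p = 0.00813), CDKN2C (-1.68 ± 0.39, adjusted p = 0.00987), CCND2 (-1.58 ± 0.46, adjusted p = 0.0224), CCND1 (-1.57 ± 0.32, adjusted p = 0.00668) and CDKN2B (-1.16 ± 0.37, adjusted p = 0.0318). CDKN1A, CDKN2B and CDKN2C were at 0% in all butyryl libraries, so the size of their differences depends on the added 1 percentage point. The butyryl lists held 8158 to 22497 regions, against 11680 to 116459 for the acetyl lists of the same cells, and the part of list length in these calls was not tested beyond the following settings. After quantile normalization (9.06% of all genes higher, 4.98% lower) CDKN1A (-1.26), CDKN1B (-1.09) and CDKN2C (-0.91) remained lower and CCND3 was higher by 0.84 (adjusted p = 0.0341). With the 8158 strongest regions (7 members tested, 0.441% of all genes higher and 4.72% lower) only CCND2 (-1.71) was called. With 1 library left out the difference ranged from -2.51 to -1.53 at CDKN1A, -2.26 to -1.75 at CDKN1B and -1.96 to -1.39 at CDKN2C. At CCND2 it ranged from -2.07 to -1.09, at CCND1 from -1.93 to -1.21 and at CDKN2B from -1.4 to -0.917. All of these calls but that of CCND1 were lost without replicate 1 of H3K18ac in NaBu.

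**Figure D4:**
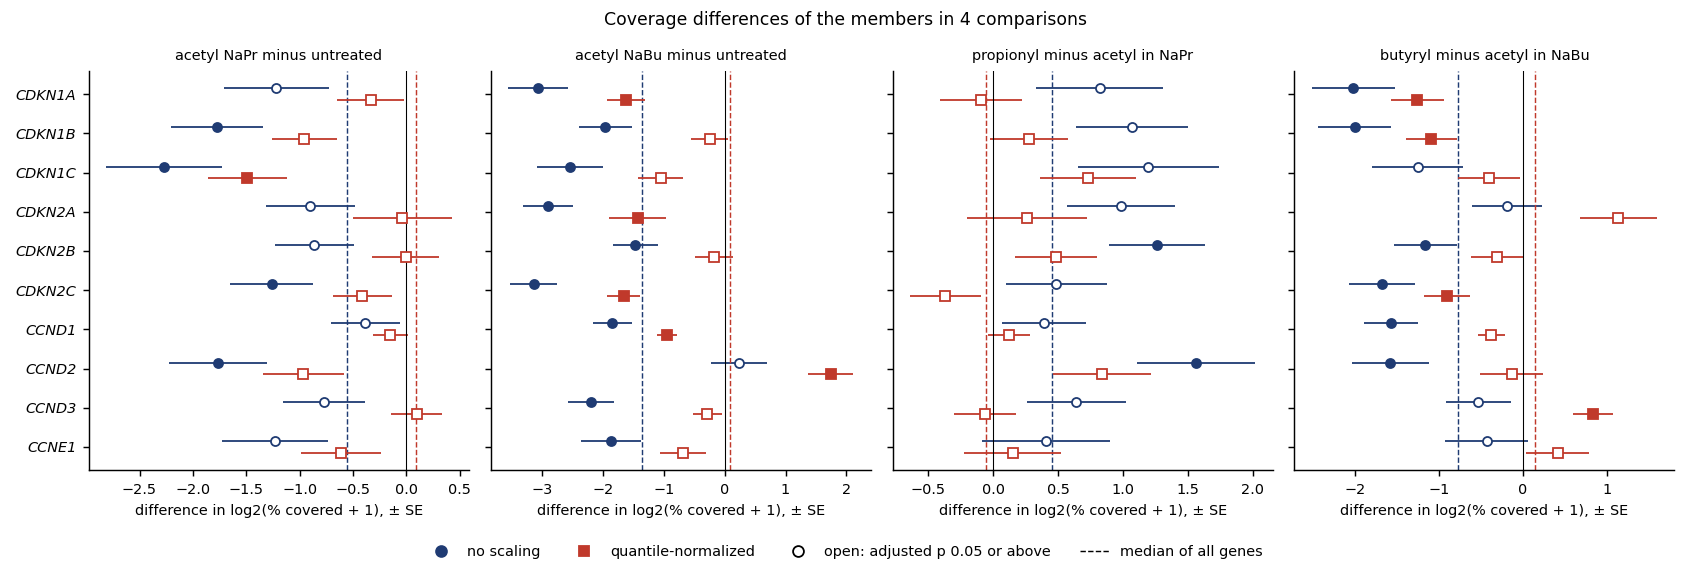
Differences in log2(percent covered + 1) with standard errors for the 10 members in the 4 comparisons, without scaling (circles) and after quantile normalization (squares). Filled symbols have an adjusted p under 0.05 and dashed lines are the medians of all genes. CCND2 is the only member to the right of 0 between NaBu and untreated cells.

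At single histone sites the 2 libraries of each group were compared without a test, as members whose values did not overlap. Between NaPr and untreated cells H4K12ac was lower at 9 members (67.3% of all genes) and H3K18ac at 4 (14.6%), namely CDKN1C, CDKN2B, CCND2 and CCNE1, with 0 higher at either site (5.66% and 4.72%). Between NaBu and untreated cells H4K12ac was lower at 9 (74.4%) and higher at CCND2 alone (0.25%), and H3K18ac was lower at 8 (58.7%), all but CDKN2B and CCND2, and higher at 0 (3.19%). H4K12pr exceeded H4K12ac at all 10 members in NaPr (61.4%) and lay below at 0 (4.93%), whereas H3K18pr exceeded H3K18ac at CDKN2B only (12.5%) and lay below it at CDKN1C only (11.1%). H3K18bu lay below H3K18ac at 8 (64.5%) and H4K12bu below H4K12ac at 3 (20.1%), CDKN1B, CCND2 and CCND3, with 0 above at either site (0.08% and 0.105%). CDKN1C and CDKN1B were the members at which the difference between propionyl and acetyl marks itself differed between H3K18 and H4K12 (interaction -4.55 ± 1.09, adjusted p = 0.0151, and -3.37 ± 0.86, adjusted p = 0.0196, limma). The share of all genes called in this interaction is not given here, so these calls are not set against a background.

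Against the inputs, coverage of the members was higher in the immunoprecipitated library than in the input of the same condition in 153 of 200 pairs of member and library. It was higher in all 20 pairs of each untreated acetyl group, of H3K18ac in NaPr and of H4K12pr, and in 19 of H3K18pr, 18 of H3K18ac in NaBu and 14 of H4K12ac in NaPr. In H4K12ac of NaBu cells it was higher in 9, in H3K18bu in 8 and in H4K12bu in 5. CCND1 exceeded the input in all 20 libraries and CCNE1 in 11. The share of all genes above the input is not given here, so these counts have no background. For scale, 81.3% to 88.6% of all genes had a region in untreated acetyl lists and 21.0% to 23.6% in H4K12bu lists. The NaPr acetyl libraries and the NaPr input also carried different run tags.

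A list of 40 other cell cycle genes (cyclins, CDKs, RB and E2F family, CDC25 phosphatases, checkpoint and mitotic genes) was tested in the same fit, and its shares are given beside those of all genes. The list was chosen with earlier results of these data known, so its shares are a description and not an independent test. Between NaBu and untreated acetyl libraries 39 of 40 (97.5%, against 68.6%) were lower and 0 higher, with a median of -1.60. The smallest adjusted p-values belonged to GADD45B (-3.62 ± 0.46, adjusted p = 6.77e-05), a stress-response gene, E2F8 (-2.48 ± 0.40, adjusted p = 0.000221) and CCNE2 (-2.90 ± 0.47, adjusted p = 0.000252). Between NaPr and untreated 9 (22.5%, against 15.4%) were lower, led by CDK4 (-1.87 ± 0.39, adjusted p = 0.0105), the partner of D-type cyclins, GADD45B (-2.11 ± 0.46, adjusted p = 0.0121) and CDK2 (-1.92 ± 0.48, adjusted p = 0.0198). Propionyl exceeded acetyl at 4 (10%, under the 14.6% of all genes), among them GADD45B (2.18 ± 0.46, adjusted p = 0.00834), E2F4 (2.34 ± 0.69, adjusted p = 0.0335) and CDK4 (1.27 ± 0.39, adjusted p = 0.0395). Butyryl lay below acetyl at 11 (27.5%, near the 29.0% of all genes), led by E2F1 (-2.67 ± 0.47, adjusted p = 0.00431), CDC25B (-1.69 ± 0.30, adjusted p = 0.00443) and CDK4 (-1.89 ± 0.39, adjusted p = 0.00668). In NaBu, CCND2 and 1 of these 40 were thus the cell cycle genes not called as lower.

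The genes most like CDKN1A in coverage over the 20 immunoprecipitated libraries (Pearson r of log2(percent covered + 1)) were ACVR2B (0.99), TNFRSF10A (0.99), MEAK7 (0.99), PAGR1 (0.99) and TEX19 (0.99). The median r of all 19251 other genes with CDKN1A was 0.83, and all genes share the libraries and their list lengths. Among the members r was highest for CDKN2C (0.99, rank 14 of all genes) and CCND1 (0.96), and lowest for CCND2 (0.37, rank 16747).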

How the data were processed

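SW480 libraries were grouped by the sample labels, with the input titled "acet" taken as that of untreated cells. The authors aligned reads to GRCh38.p13 (hg38) with Bowtie2 2.3.1 and called peaks per library with MACS2 2.1.0, and the submitters' processing notes also name cutadapt 1.8.1 and bcl2fastq 2.17.1. The deposited lists hold regions with p under 0.01 outside blacklisted regions, each with a fold enrichment (a ratio to local background), −log10 p-values and −log10 q-values and the offset of its summit. These deposited values were used to rank or filter regions within a list. The control behind the peak calls of the inputs themselves is not given in the sources used here. Reads were not analysed here and the depth behind each list is unknown, so no counting intervals are given.

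Loci and start sites (Ensembl canonical transcript) came from GENCODE 44 (hg38), and promoter sequences from RefSeq (GRCh38.p14). Percent covered was computed with Python 3.11.15, and tested with limma 3.58.1 in R 4.3.3 (group model over 20 libraries, trended and robust empirical Bayes, checked on simulated data). Genes named were the 10 members, the 5 genes most like CDKN1A, and of the 40 other cell cycle genes at most 3 with the smallest adjusted p per direction and comparison. Members and lists were chosen with earlier results of these data known. The alternatives tried were equal numbers of regions, q under 0.05, 1 kb flanks, quantile normalization, removal of regions over input, a pseudocount of 0.1, no filter, a replicate block and each library left out.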

Additional observations from a re-analysis of the deposited data

Results flagged for a closer look

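At 2 members the difference between propionyl and acetyl coverage in NaPr cells differed between the histone sites by a test of the interaction (limma, over 18842 genes). The share of all genes called in that test is not given here. Without overlap of libraries, H4K12pr exceeded H4K12ac at 61.4% of all genes and H3K18pr exceeded H3K18ac at 12.5%. A split between the sites was thus not particular to these members. At CDKN1C the H3K18 difference minus the H4K12 difference was -4.55 ± 1.09 (SE, log2 scale, adjusted p = 0.0151). H3K18pr covered 2.79% and 3.03% of the locus and H3K18ac 11.6% and 4.42%, while H4K12pr covered 25.3% and 3.69% and H4K12ac 0% in both libraries. With H4K12ac at 0%, the size of the CDKN1C interaction depends on the added 1 percentage point. At CDKN1B it was -3.37 ± 0.86 (adjusted p = 0.0196). H3K18pr covered 16.1% and 8.68% and H3K18ac 30.2% and 11.5%, while H4K12pr covered 17.0% and 15.1% and H4K12ac 0.501% and 3.25%. Both H4K12ac libraries of NaPr cells lay below both untreated ones at 9 of 10 members, all but CDKN2B (67.3% of all genes), and propionyl and acetyl libraries carried different run tags, so the mark and the tag cannot be told apart.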

How the results depend on the processing

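Of 328 member differences under alternatives other than leaving out a library, 268 kept their direction and side of the threshold, 26 lost a call, 17 gained one and 17 reversed. Of 800 with 1 library left out the numbers were 736, 55, 7 and 2. The cause was not tested unless stated. Members called lower between NaPr and untreated numbered 4, but 1 with equal numbers of regions, with quantile normalization or with a pseudocount of 0.1, 7 with q under 0.05 and 0 to 7 with a library left out, and 1 was higher (CCND1) after removal of regions over input. Of all genes 15.4% were lower, and 21.9%, 2.68%, 3.76% and 28.7% in the listed settings up to q under 0.05. After the removal 0.712% of all genes were higher. Shares of all genes with a library left out are not given here for any comparison. With the pseudocount the lost calls CCND2 (-2.77, limma adjusted p = 0.0590) and CDKN1B (-2.17, adjusted p = 0.0600) had larger differences than before. Equal numbers left 7 of 10 members to test, without CDKN1C, CDKN2C and CCNE1. Between NaBu and untreated 9 were lower, but 4 were lower and 1 higher with equal numbers or quantile normalization. Of all genes 68.6% were lower, then 32.7% (5.27% higher) with equal numbers and 8.52% (10.8% higher) with quantile normalization. Leaving out any library kept 9. Propionyl against acetyl gave 2 higher, but 4 with q under 0.05, 0 with quantile normalization or a pseudocount of 0.1 and 0 to 4 with a library left out. Of all genes 14.6% were higher, and 25.5%, 3.86% and 3.84% in the listed settings up to the pseudocount. Butyryl against acetyl gave 6 lower, but 1 with equal numbers, 3 lower and 1 higher with quantile normalization, and 1 to 7 with a library left out. Of all genes 29.0% were lower, then 4.72% with equal numbers and 4.98% (9.06% higher) with quantile normalization. A mean of 5.05 start sites per library became 2.00 at the single base and 1.85 with equal numbers (39.8%, 14.7% and 14.1% of all genes).

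The reversed differences (log2) were these. After removal of regions over input, which by construction drops the wide untreated regions, CCND1 was 2.73 for NaPr and 1.05 for NaBu against untreated. With equal numbers CCND2 was 0.27 for NaPr against untreated and -0.27 for propionyl against acetyl, CCND3 was -0.27 for propionyl and 0.37 for butyryl against acetyl, and CDKN2A was 0.34 for butyryl against acetyl. With quantile normalization CCND3 was 0.096 for NaPr against untreated, -0.064 for propionyl and 0.84 for butyryl against acetyl, CDKN1A was -0.096 and CDKN2C -0.37 for propionyl, and CDKN2A was 1.14 and CCNE1 0.41 for butyryl. CDKN2A was 0.12 for butyryl with a pseudocount of 0.1 and ranged from -0.72 to 0.34 with a library left out. CCNE1 for propionyl against acetyl was -0.044 with q under 0.05, -1.002 with the NaPr and untreated lists cut to 76888 regions each, an alternative chosen after seeing the data, and -0.044 to 0.86 with a library left out. That alternative gave 6 lower for NaPr against untreated (20.6% of all genes) and 3 higher for propionyl against acetyl (22.6%).

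The main fit did not pair samples by replicate number, and whether the numbers mark pairs is not known here. The deviations of replicate 1 from its group mean correlated between groups at -0.134 to 0.244 (median 0.041, 10 of 45 pairs over 0.1). A correlation over genes cannot show a shift shared by a whole library. Replicate 1 lists covered more bases than replicate 2 lists in every group but untreated H3K18ac (67.2 and 69.4 Mb). The gap was wide for H3K18ac in NaPr (89.8 and 46.0 Mb) and small for H3K18bu (9.973 and 9.966 Mb). With a replicate block, 5 members were lower for NaPr against untreated (25.4% of all genes) and 3 were higher for propionyl against acetyl (22.5%). In NaBu 9 stayed lower (71.3%), and for butyryl against acetyl 6 did (39.2%). Differences in list length, which the deposited lists do not let be set apart from signal, limit all comparisons of coverage.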
